A study of Saccharomyces cerevisiae with 144 samples.

Results

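The ΔCPS strain (RDY243) of Saccharomyces cerevisiae carries degradable Bdf1 and Bdf2 together with a constitutive BDF1 copy that lacks the C-terminal phosphorylation sites (CPS), and its 3 IAA libraries were compared with its own 3 DMSO libraries. These 6 libraries are those that the labels give for this strain and both treatments, out of 144 libraries of 23 strains. The question was what removal of the endogenous proteins still takes away in a strain whose synthesis of new RNA was already low before removal. New RNA was measured by SLAM-seq, in which cells take up 4-thiouracil (4tU, here 5 mM for 4 min) and RNA made during the pulse is read with T>C conversions. Cultures in YPD at 30 °C had first been given 1 mM 3-indoleacetic acid (IAA) in DMSO, or DMSO alone, for 25 min.

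In every strain used here, BDF1 and BDF2 bear a 3xV5-mAID tag (BDF1 marked with URA3, BDF2 with KanMX), and the plant F-box protein OsTIR1 is driven by the GPD1 promoter and integrated at HIS3, so the controls carry the degron as well. No group used here received IAA without the degron, so an effect of IAA itself cannot be told apart from that of depletion. The background is the MATα strain BY4705. ΔCPS holds the deletion variant at TRP1 under the BDF1 promoter and 3′ UTR. It was set against mNPS/CPS and ΔNPS/CPS, in which the N-terminal and C-terminal phosphorylation sites are mutated or deleted together, against Bdf1/2-AID, which has no additional copy (3 libraries per treatment each), and against WT, which has an unmodified additional copy (6 per treatment). In IAA the variant is the BDF1 copy without a degron, whereas the DMSO samples hold the variant beside the tagged proteins. Replicates were biological per the methods, the amount of protein left was not measured in these files, and the extent of the deletion is not given in the sources used here.

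BET proteins bind acetylated histones through paired bromodomains and help to assemble the transcription machinery at promoters. In yeast, Bdf1 and its paralog Bdf2 associate with TFIID, the complex that brings the TATA-binding protein to promoters, and Bdf1 is also a subunit of the SWR1 complex, which exchanges histone H2A for the variant Htz1.

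The ΔCPS libraries held 9337863 to 14189645 reads, of which 104749 to 190032 were T>C reads (reads with at least 2 conversions). A tested gene had a median of 13.7 T>C reads per library, so the precision of single genes was limited. Labels were checked on the genes used to build the strains, in counts per 1000000 reads of the library (CPM). BDF1 had 291.2 ± 13 CPM in IAA and 272.4 ± 22 CPM in DMSO in ΔCPS, against 135 ± 5.2 and 106 ± 9.0 CPM in Bdf1/2-AID (SD, n = 3 each). TRP1, the integration site, had 19.5 ± 1.4 and 16.4 ± 1.2 CPM in ΔCPS, against 1.70 ± 0.60 and 1.84 ± 0.70 CPM in Bdf1/2-AID. Reads of BDF1 come from the tagged gene and the variant alike, so they show a further copy and not its sequence. URA3 and BDF2 differed little between treatments in ΔCPS (4192 ± 388.4 CPM in IAA and 3979 ± 356 CPM in DMSO for URA3, 134 ± 12 and 133 ± 18 CPM for BDF2), and HIS3 was at 0.171 ± 0.038 and 0.081 ± 0.074 CPM. Of the markers of mating type, the α-factor gene MF(ALPHA)1 had 1162 ± 117 CPM in IAA and 1255 ± 102 CPM in DMSO, and its T>C reads were among those called lower in IAA (log2 change −0.50, edgeR adjusted p = 0.0315, and 0.188 with size factors of total reads). Of the 6 MATa markers, the a-factor gene MFA1 had 27.7 ± 3.8 and 23.3 ± 3.2 CPM, and the other 5 had means of at most 10.7 CPM.

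The share of T>C reads was lower in IAA than in DMSO in ΔCPS, and both values were low beside Bdf1/2-AID and WT. T>C reads made up 1.12%, 1.17% and 0.978% of the reads of the 3 IAA libraries, against 1.37%, 1.41% and 1.39% in the 3 DMSO libraries (1.09% ± 0.10 and 1.39% ± 0.019, SD, n = 3 each). The groups did not overlap, and IAA library C was the lowest, but with 3 libraries on either side the smallest exact two-sided p is 0.1. The IAA mean was 78.6% of the DMSO mean, so 0.298 percentage points, or 21.4% of the DMSO share, were absent in IAA. As whole cultures were sequenced, fewer labeled cells and less new RNA per cell cannot be told apart.

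In Bdf1/2-AID the share was 1.52% ± 0.030 in IAA and 3.05% ± 0.16 in DMSO (SD, n = 3 each), a difference of 1.53 percentage points, or 50.1% of its DMSO share. The DMSO libraries of ΔCPS, with the endogenous proteins present, thus lay below the IAA libraries of Bdf1/2-AID (1.50% to 1.56%), and the IAA libraries of ΔCPS lay lower still. In WT it was 3.06% ± 0.22 in IAA and 3.85% ± 0.38 in DMSO (SD, n = 6 each), a difference of 0.787 percentage points, or 20.5% of its DMSO share. As a proportion of its own baseline, the loss in ΔCPS was thus near that in WT, while the baseline differed (the difference in this proportion was not tested). Single IAA libraries stood at 70.4% to 84.5% of the DMSO mean in ΔCPS, at 72.0% to 85.1% in WT and at 49.0% to 51.0% in Bdf1/2-AID.

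**Figure D1:**
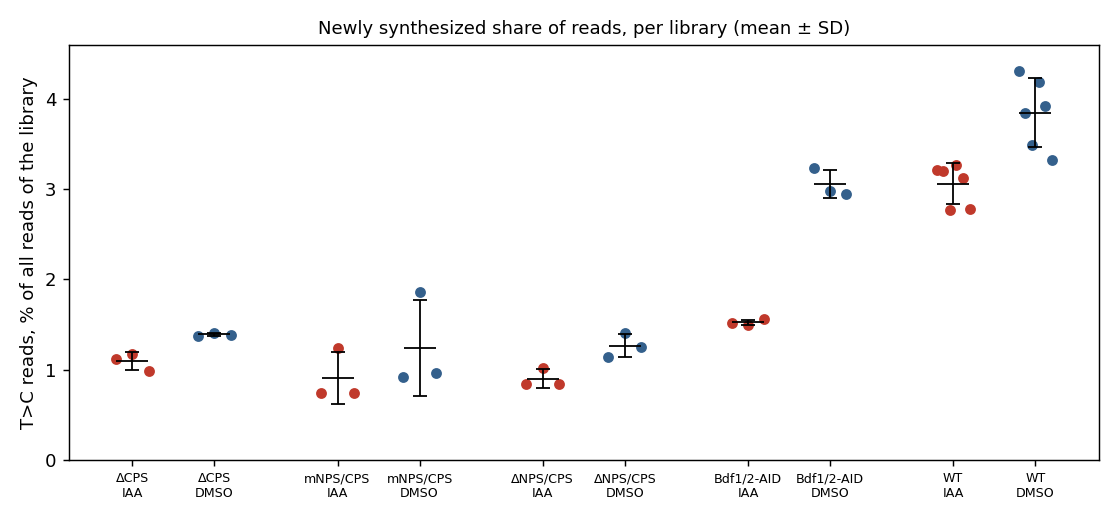
T>C reads as a percentage of all reads of the library (vertical axis) for each IAA library (red) and DMSO library (blue) of ΔCPS, mNPS/CPS, ΔNPS/CPS, Bdf1/2-AID and WT, with mean and SD (n = 6 per treatment in WT and 3 otherwise). The 3 ΔCPS libraries in IAA (0.978% to 1.17%) lie below its 3 in DMSO (1.37% to 1.41%), and both groups lie below all libraries of Bdf1/2-AID and WT.

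Against WT, ΔCPS was lower by 1.97 percentage points in IAA and by 2.46 in DMSO, each with an exact two-sided permutation p of 0.0238 (3 libraries against 6, also 0.0238 when adjusted over the 2 comparisons, the smallest p this design can give). The ribosomal protein gene RPL41A took 2.93% to 4.80% of reads in ΔCPS, against 13.4% to 19.9% in WT libraries A to C and 3.68% to 4.39% in WT libraries D to F, so the WT sets differ in composition. Within either set the differences were 1.97 in IAA, and 2.49 (A to C) and 2.42 (D to F) percentage points in DMSO, with an exact p of 0.1, the smallest possible for 3 against 3. By the library numbers in the file headers, ΔCPS, Bdf1/2-AID and mNPS/CPS fall in 1 run of numbers and WT and ΔNPS/CPS in others, so strain and library set cannot be told apart in comparisons with WT and ΔNPS/CPS. Labeling efficiency between strains was not tested.

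Gene by gene, values in IAA in ΔCPS showed a shallow and broad reduction rather than a few strong ones. T>C reads of each gene were scaled to all reads of the library and tested in 4168 genes with a mean of at least 5 T>C reads over the 6 libraries. The median log2 change on IAA was −0.41, or 75.4% of the DMSO level (a 1.33-fold reduction), and 3595 genes (86.3%) had a value below 0. The medians of the 3 single IAA libraries were −0.33, −0.27 and −0.55, lowest in library C (SD 0.15), and those of the DMSO libraries against their own mean ran from −0.0026 to 0.021 (SD 0.013, n = 3). From the 5th to the 95th percentile of genes, changes spanned −1.20 to 0.24. After Benjamini-Hochberg adjustment, 94 genes (2.26%) were lower in IAA and 0 were higher (0%) by edgeR's quasi-likelihood test. Without adjustment, 893 genes were lower (21.4%) and 5 higher (0.12%) at p under 0.05, and DESeq2 called 68 lower and 0 higher. The groups did not overlap in 1069 genes (25.6%) that were lower and in 23 genes (0.552%) that were higher.

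**Figure D2:**
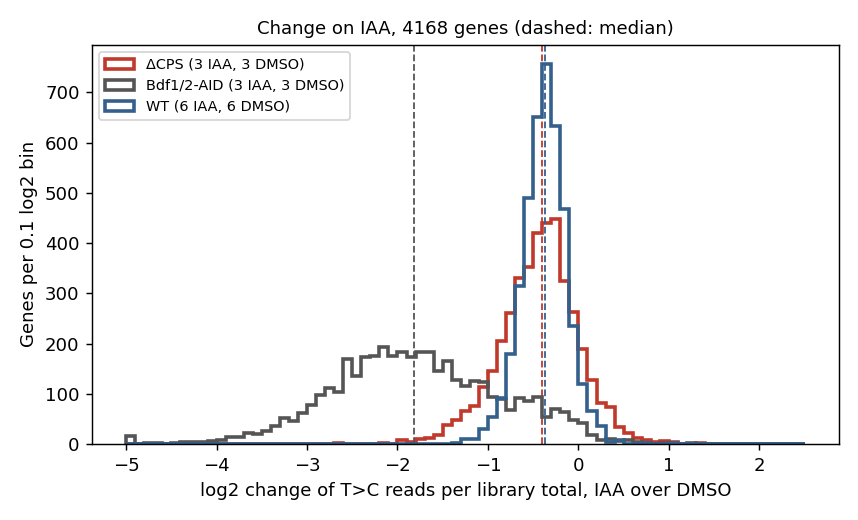
Number of genes (vertical axis, 0.1 log2 bins) by log2 change of T>C reads per library total on IAA (horizontal axis) in ΔCPS, Bdf1/2-AID and WT, over the 4168 genes, with medians dashed and values beyond the axis counted in the end bins. ΔCPS (median −0.41) lies over WT (−0.37), with a broader spread, and far from Bdf1/2-AID (−1.82).

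The number of calls depended on few libraries and on the scaling. Leaving out 1 library gave 14 (IAA A), 117 (IAA B), 5 (IAA C), 7 (DMSO A), 2 (DMSO B) and 37 (DMSO C) lower genes. With size factors from total reads 1 gene was called (RPS11A), the median change being −0.30. Scaling to the T>C reads themselves (TMM), which sets the typical gene near no change, also left RPS11A alone lower, with a median of 0.0098. It called 5 genes higher, which were RPL41A, PDR12, YGL007C-A and the ribosomal DNA features RDN25-2 and ITS2-2. The falls of the 94 genes ran from −0.43 to −2.70 with a median of −1.06, beside a median standard error of 0.42 for all genes tested.

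The 94 called genes had more reads than a typical gene, with a median of 3.03 in ΔCPS against 1.17 over all genes tested, in T>C reads per 1000000 reads of the library (T>C CPM). Their counted regions were shorter (median of 872.5 against 1513 bases). Regions of 24 of them (25.5%) overlapped another on the same strand, against 18.2% of all genes tested. Over 5 bins of genes by their T>C reads in WT, a strain outside this contrast, the share called was 0.480%, 1.20%, 1.44%, 2.88% and 5.28% from the lowest to the highest bin. The median change did not follow that order, with −0.44, −0.43, −0.44, −0.45 and −0.33, so the bins with more calls did not have larger median changes.

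The 6 largest falls, among called genes with at least 20 T>C reads and no overlap between groups, belonged to genes of different roles. OPY1 (YBR129C, chrII:494103-495339), which encodes a pleckstrin homology domain protein that binds phosphoinositides, had 0.535, 0.423 and 0.557 T>C CPM in the IAA libraries, against 1.96, 2.20 and 1.75 in the DMSO libraries. It fell by 1.95 on the log2 scale (SE 0.44, edgeR adjusted p = 0.0122), and its region shares 13 bases with that of ATG14. FIT2 (YOR382W, chrXV:1059531-1060242), a cell wall mannoprotein that helps to retain siderophore-bound iron, had 1.18, 0.493 and 0.796 in IAA, against 2.16, 3.83 and 1.24 in DMSO (log2 change −1.57, SE 0.38, edgeR adjusted p = 0.0166). In FIT2 the highest IAA library and the lowest DMSO library lay close together, whereas in OPY1 they lay far apart.

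SOL1 (YNR034W, chrXIV:690321-691536), a homolog of 6-phosphogluconolactonases, had 1.07, 0.634 and 0.478 T>C CPM in IAA, against 1.77, 2.20 and 2.12 in DMSO (log2 change −1.52). AKR2 (YOR034C, chrXV:394587-397086), which encodes an ankyrin repeat protein related to the palmitoyltransferase Akr1, had 0.643, 0.775 and 0.398 in IAA, against 0.884, 1.91 and 2.26 in DMSO (−1.48). DMSO library A stood close to the IAA libraries in AKR2 but not in SOL1. SRN2 (YLR119W, chrXII:385534-386425), a subunit of the ESCRT-I sorting complex, had 0.643, 0.634 and 1.03 in IAA, against 1.96, 2.20 and 2.33 in DMSO (−1.48). URM1 (YIL008W, chrIX:342536-343085), a ubiquitin-like protein that supplies sulfur for tRNA thiolation, had 0.321, 0.987 and 0.557 in IAA, against 1.96, 2.30 and 1.24 in DMSO (−1.45). The edgeR adjusted p of these 4 genes ran from 0.0202 (SRN2) to 0.041 (AKR2), and each of the 6 lost its call in at least 5 of the 13 or 14 alternatives that tested it. No gene met the same conditions as a rise.

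The TATA box, at which the TATA-binding protein contacts DNA, was looked for as TATAAA on either strand in the 250 bases before the start codon in the R64 reference genome. It was present in 41 of 92 called genes with a promoter entry (44.6%), in 40.6% of the promoters of all genes tested and in 43.5% of all protein-coding promoters, so its share among the called genes was close to either background. The windows below give a match (capitals, TTTATA being its reverse complement) in called and uncalled genes. OPY1 and FIT2 are the only genes among the largest falls named above that hold one. HXT2 is a called hexose transporter gene, and the glycolytic genes TDH3 and PGK1 were not called. Each is read 5′ to 3′ on the strand of its gene.
OPY1, chrII:495497-495526, minus strand, match 175 bases before the start codon: tgcctctaaggtTTTATAgacacgaatcca
FIT2, chrXV:1059431-1059460, plus strand, match 88 bases before the start codon: tagcaatatatgTATAAAacaggaatgtgt
HXT2, chrXIII:287945-287974, plus strand, match 122 bases before the start codon: attcacaaatgaTATAAAaagcgattacaa
TDH3, chrVII:883932-883961, minus strand, match 139 bases before the start codon: gactaataagtaTATAAAgacggtaggtat
PGK1, chrIII:137585-137614, plus strand, match 149 bases before the start codon: catttacatataTATAAActtgcataaatt

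The call that did not depend on the setting was RPS11A (YDR025W, chrIV:491515-492574), 1 of the 2 copies of the gene for ribosomal protein S11 of the small subunit, singled out after its values were seen. It had 7.18, 8.39 and 5.65 T>C CPM in IAA, against 14.8, 17.3 and 17.1 in DMSO. The fall of 1.21 on the log2 scale (SE 0.18, edgeR adjusted p = 2.63e-07) was called in 14 of 14 alternatives, with adjusted p from 3.69e-09 to 0.00561. Its paralog RPS11B (YBR048W, chrII:332831-334062) had 8.03, 7.96 and 6.77 in IAA, against 7.17, 9.09 and 8.46 in DMSO, so the groups overlapped (log2 change −0.12, SE 0.20, edgeR adjusted p = 0.735). In Bdf1/2-AID the log2 changes were −1.46 for RPS11A and −1.17 for RPS11B. Copies of this kind can share reads, although under 0.2% of the reads of either were marked as mapping to several places.

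Cytosolic ribosomal protein genes, which are among the most highly transcribed of growing yeast, had 8 called members of 137 (5.84%, against 2.26% of all genes tested), and their median change of −0.32 was smaller than that of all genes (−0.41). They had a median of 13.4 T>C CPM in ΔCPS, against 1.17 over all genes tested. In the highest of the 5 bins by T>C reads in WT, 5.28% of genes were called and the median change was −0.33, both close to theirs. Summed over the 137 genes, new RNA came to 2305 ± 239 T>C CPM in IAA and 2818 ± 130 in DMSO (SD, n = 3 each), and 131 genes had a log2 change below 0 (with TMM scaling the median of the list was 0.10). The other 7 called genes were RPS28B (log2 change −0.89), RPL12B (−0.64), RPS22A (−0.62), RPP1A (−0.58), RPL35B (−0.58), RPS28A (−0.54) and RPL25 (−0.52). RPS28A and RPS28B, a duplicated pair, were called together, whereas RPS22B (−0.07, edgeR adjusted p = 0.819) was not called beside RPS22A (adjusted p = 0.0197). The 2 genes of the list with the most T>C reads were not called. RPL41A had 156, 147 and 129 T>C CPM in IAA and 147, 142 and 157 in DMSO, and RPL38 had 73.9, 82.0 and 64.1 in IAA and 85.3, 97.1 and 92.7 in DMSO.

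**Figure D3:**
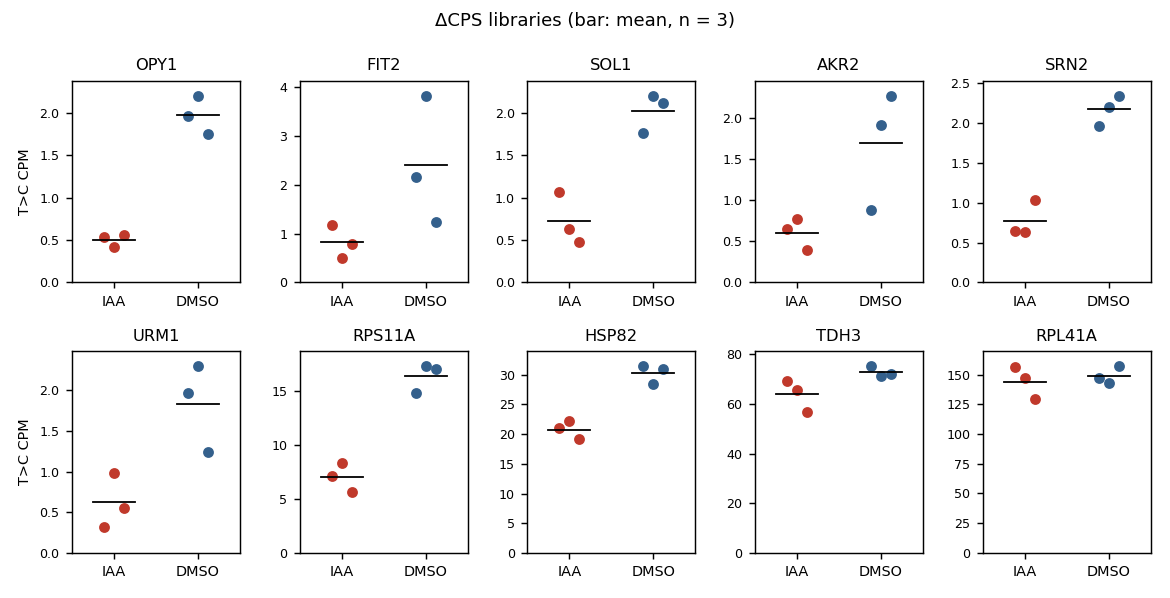
T>C CPM (vertical axis, T>C reads per 1000000 reads, from 0, own scale per panel) in the 3 IAA libraries (red) and 3 DMSO libraries (blue) of ΔCPS, with the group mean as a bar, for the 6 largest falls and for RPS11A, HSP82, TDH3 and RPL41A. The groups do not overlap in 9 of the panels and overlap in RPL41A.

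Among components of the transcription machinery 0 to 2 genes per list were called, counts too small to be read against the 2.26% of all genes tested. TFIID subunits had 0 called members of 15 and a median change of −0.54. All 15 values were below 0 (86.3% of all genes tested were), and the IAA libraries lay below the DMSO libraries without overlap in 7 (25.6% of all genes tested). SAGA, the coactivator that also delivers the TATA-binding protein, had 0 of 13 (median −0.47), subunits of RNA polymerase II 0 of 12 (−0.37) and elongation factors 0 of 18 (−0.44). In Mediator, which links activators to the polymerase, 2 of 20 were called (10%, median −0.48). These were CSE2, with 0.643, 0.423 and 0.239 T>C CPM in IAA and 1.18, 1.24 and 2.26 in DMSO, and SRB7, with 0.428, 1.13 and 0.159 in IAA and 1.37, 1.72 and 1.82 in DMSO. In the SWR1 complex 1 of 13 was called (7.69%, median −0.39), the AAA+ ATPase RVB2, which had 0.964, 0.634 and 1.19 in IAA and 2.16, 3.44 and 1.17 in DMSO. The groups overlapped in RVB2 and did not overlap in CSE2 and SRB7.

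Among growth genes the counts of calls were likewise small beside the background of 2.26%. Ribosome biogenesis had 1 called gene of 86 (1.16%, RRP1, required for the large subunit, log2 change −0.78) and a median of −0.31, and the proteasome 1 of 35 (2.86%, SCL1, the alpha 1 subunit of the core particle, −1.22) and a median of −0.34. Among 24 cell cycle genes the S-phase cyclin CLB5 was called (−1.42, list median −0.31). Amino acid biosynthesis (52 genes tested of 62, median −0.25) and ergosterol synthesis (24 genes, −0.28) had 0 calls each. Relative to the median of all genes these groups shifted less, and with TMM scaling their medians were above 0 (0.10 for ribosome biogenesis and 0.17 for amino acid biosynthesis).

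The medians nearest to 0 among these groups were those of glycolysis, histones and stress genes. The 17 glycolytic genes had a median of −0.14 with 0 calls, the 11 histone genes (those of the core histones, the variants Htz1 and Cse4 and the linker histone Hho1) −0.14 with 0, and the 13 tested of 32 targets of the stress activators Msn2 and Msn4 −0.08 with 0. TDH3, which encodes the main glyceraldehyde-3-phosphate dehydrogenase, had 69.2, 65.7 and 56.9 T>C CPM in IAA and 75.1, 71.4 and 72.2 in DMSO. Histone H4 gene HHF2 had 32.0, 30.8 and 26.6 in IAA and 39.3, 39.3 and 36.4 in DMSO. In both genes the groups did not overlap but the differences were not called. Of the 23 tested chaperone genes driven by Hsf1 (median −0.35), only the Hsp90 gene HSP82 was called, with 21.0, 22.2 and 19.1 in IAA and 31.4, 28.5 and 31.0 in DMSO (log2 change −0.55, edgeR adjusted p = 0.0306). Of the 9 tested hexose transporter genes (median −0.40), HXT2 was called, with 8.46, 6.91 and 7.88 in IAA and 9.62, 12.8 and 14.4 in DMSO (log2 change −0.68, edgeR adjusted p = 0.0306). HXT2 was 1 of 4 called genes that were not called lower in Bdf1/2-AID, where its log2 change was −0.23. The other 3, seen after their values were known, were PMA1 (log2 change −0.46 in ΔCPS and −0.16 in Bdf1/2-AID), the plasma membrane proton pump, GPP1 (−0.54 and 0.15), a glycerol phosphatase, and SPO24 (−0.43 and −0.09). By a test of the difference between the strains (an edgeR interaction), only GPP1 of these 4 was called (−0.69, adjusted p = 0.00403). HXT2 was not (−0.45, adjusted p = 0.106).

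The same treatment removed far more in Bdf1/2-AID, the strain with no further copy. Over the same 4168 genes the median log2 change there was −1.82 (28.3% of DMSO), with 3617 genes lower (86.8%) and 13 higher (0.312%). Of the 94 genes called in ΔCPS, 90 (95.7%) were lower in Bdf1/2-AID, beside that background of 86.8%, in which a typical gene had fewer reads. The difference between the 2 changes was tested as an interaction. In 2174 genes (52.2%) the fall was smaller in ΔCPS than in Bdf1/2-AID, in 11 (0.264%) the difference ran the other way, and the median difference was 1.33 on the log2 scale (2.52-fold). Among the 94 genes, 33 (35.1%) fell less in ΔCPS by this test, SOL1 (difference of 1.34, edgeR adjusted p = 0.0478) and URM1 (1.57, 0.0395) among them. RPS11A was not called (0.25, adjusted p = 0.389). The 94 genes were chosen for their falls in the same ΔCPS libraries, so a share below the 52.2% of all genes follows in part from that choice.

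The size of the interaction depended on the scaling. For all reads, scaled in the same way, the median gene changed on IAA by −0.11 on the log2 scale in ΔCPS and by −1.07 in Bdf1/2-AID. Size factors take this shift out, and then 251 genes fell less in ΔCPS and 246 further (median difference 0.38). With each gene's own reads as the denominator the counts were 249 and 0 (median 0.47), and with TMM they were 109 and 437 (0.10).

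Across genes the fitted changes in ΔCPS and in Bdf1/2-AID were weakly correlated. Pearson's r was 0.20 and Spearman's rho 0.19 over 4168 genes, and both were 0.30 over the 1436 genes with a mean of at least 20 T>C reads. A gene's change in ΔCPS had a median standard error of 0.42, beside quartiles of −0.69 and −0.17 across genes. Such noise lowers both coefficients, so low values do not by themselves show that the underlying changes are unrelated. The strains share no library, and the values are across genes, which are not independent replicates and share the depth of their libraries. In 5 bins of genes by the change in Bdf1/2-AID, the medians in ΔCPS were −0.52, −0.43, −0.44, −0.41 and −0.27, against −2.92, −2.28, −1.82, −1.32 and −0.48 in Bdf1/2-AID. The bins thus spanned 0.25 on the log2 scale in ΔCPS and 2.44 in Bdf1/2-AID. As they were cut on the change in Bdf1/2-AID, noise included, its wider span follows in part from the sorting.

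**Figure D4:**
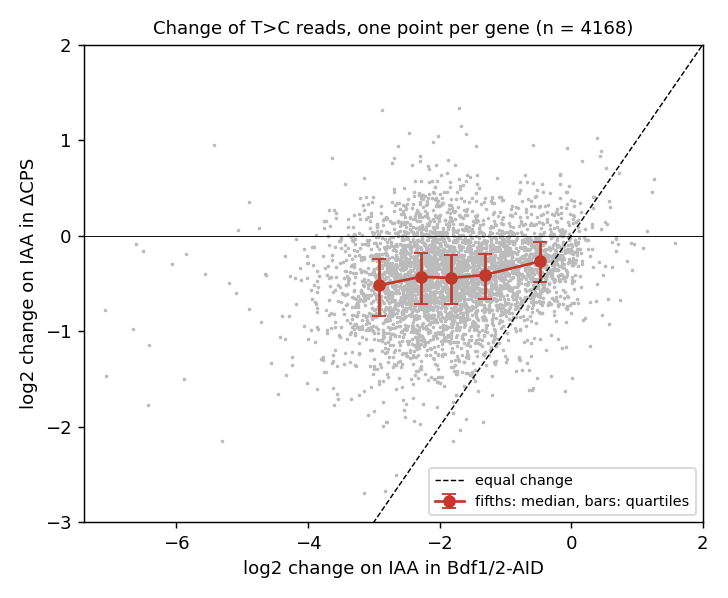
Log2 change of T>C reads on IAA in ΔCPS (vertical axis) against that in Bdf1/2-AID (horizontal axis), with 1 grey point per gene, medians and quartiles of 5 bins in red, and the dashed line for equal change. The medians stay between −0.52 and −0.27 while those of Bdf1/2-AID, on whose change the bins were cut, span −2.92 to −0.48.

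The median of the difference was 1.72 for SAGA, 1.55 for TFIID, 1.54 for Mediator, 1.49 for ribosome biogenesis and 1.47 for the proteasome, beside 1.33 for all genes tested. It was below that of all genes for elongation factors (1.29), the SWR1 complex (1.17), RNA polymerase II subunits (1.15) and ribosomal proteins (0.82). TFIID subunits had a median of −0.54 in ΔCPS and −2.04 in Bdf1/2-AID, and 12 of 15 fell less in ΔCPS (52.2% of all genes tested did). For ribosome biogenesis the medians were −0.31 and −1.86 (75 of 86 fell less), for the proteasome −0.34 and −1.78 (30 of 35) and for ribosomal proteins −0.32 and −1.13 (119 of 137). Ribosomal protein genes had more reads, with a median of 13.4 T>C CPM in ΔCPS against 1.17 over all genes tested. Their high count thus does not stand for a larger difference. Glycolytic genes went the other way, at −0.14 in ΔCPS and 0.14 in Bdf1/2-AID, and in 4 of 17 the change was more negative in ΔCPS.

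**Figure D5:**
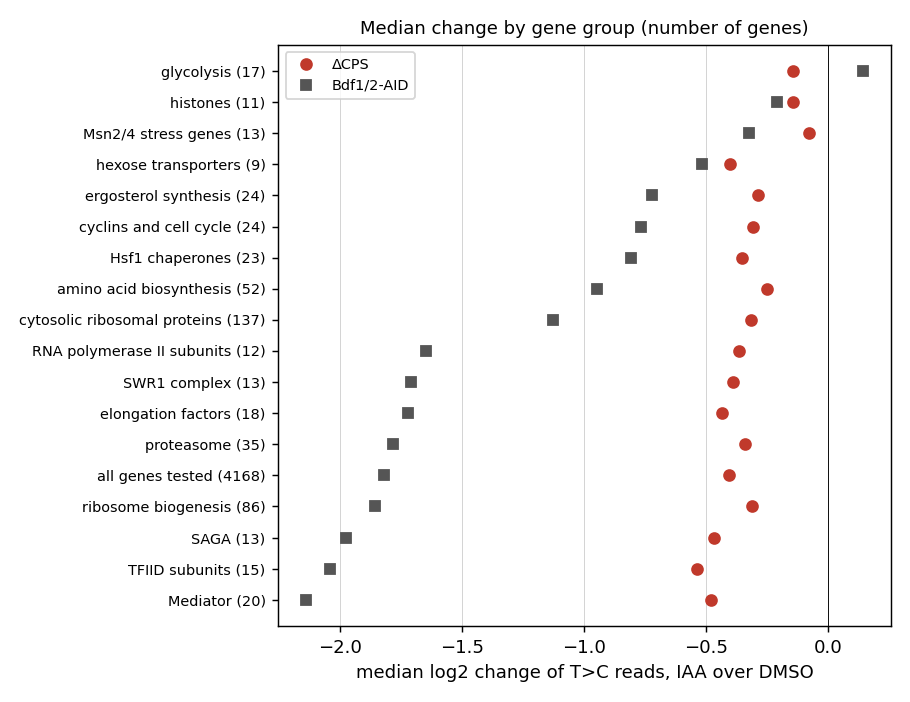
Median log2 change of T>C reads on IAA over DMSO (horizontal axis) in ΔCPS (red circles) and Bdf1/2-AID (grey squares) for each gene group (number of tested genes in parentheses). Medians of ΔCPS lie between −0.54 (TFIID subunits) and −0.08 (Msn2/4 stress genes), and those of Bdf1/2-AID between −2.14 (Mediator) and 0.14 (glycolysis).

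The 3 largest differences toward a smaller fall in ΔCPS, among genes that met the rule for naming, rested on genes nearly absent from Bdf1/2-AID in IAA. DMA2 (YNL116W, chrXIV:408341-410159), a ubiquitin ligase of the spindle position checkpoint, had 4, 8 and 9 T>C reads in IAA and 4, 4 and 2 in DMSO in ΔCPS, against 0, 1 and 0 in IAA and 26, 20 and 14 in DMSO in Bdf1/2-AID. MTC5 (YDR128W, chrIV:709549-713245), a subunit of the SEA complex that acts on TORC1, had 11, 4 and 7 in IAA and 4, 10 and 15 in DMSO in ΔCPS, against 0, 1 and 0 in IAA and 18, 25 and 22 in DMSO in Bdf1/2-AID. IRC25 (YLR021W, chrXII:183623-184412), an assembly chaperone of the proteasome, had 17, 32 and 14 in IAA and 20, 53 and 27 in DMSO in ΔCPS, against 1, 0 and 1 in IAA and 29, 30 and 15 in DMSO in Bdf1/2-AID. Scaled to library totals, the summed reads in IAA were 199.8% of those in DMSO for DMA2 in ΔCPS (95% exact interval 90.1% to 475%, counting error only) and 1.74% in Bdf1/2-AID (0.0433% to 10.1%). They were 72.2% (39.5% to 130.1%) and 1.60% (0.0400% to 9.26%) for MTC5, and 59.9% (43.0% to 83.0%) and 2.82% (0.335% to 10.5%) for IRC25. The edgeR adjusted p of the interaction was 8.12e-07 for DMA2, 2.53e-05 for MTC5 and 9.51e-06 for IRC25, and their fitted differences depend on the prior count.

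The 11 genes with the opposite difference were mostly genes that Bdf1/2-AID kept or raised on IAA. NRD1 (YNL251C, chrXIV:172338-174315), which encodes an RNA-binding subunit of the complex that terminates short noncoding transcripts, had 0.857, 1.34 and 1.11 T>C CPM in IAA and 0.982, 1.24 and 1.31 in DMSO in ΔCPS. In Bdf1/2-AID it had 10.3, 8.07 and 9.19 in IAA and 3.53, 3.10 and 2.18 in DMSO, so the increase seen there was not seen in ΔCPS (difference of −1.66, SE 0.45, edgeR adjusted p = 0.00159). The snoRNA genes SNR55 (−1.12, edgeR adjusted p = 0.0176) and SNR61 (−1.11, 0.0381), guides of ribosomal RNA methylation, followed. With each gene's own reads as denominator none of these 3 was called, the differences being −0.042 for NRD1, −0.0026 for SNR55 and 0.094 for SNR61. The counted regions of SNR55 and SNR61 share 129 bases, so these 2 are not separate results, and that of SNR55 also overlaps SNR57 by 108 bases. Of the other 8, singled out after their values were seen, the glycolytic genes ENO1 (−1.03), TDH2 (−0.99), GPM1 (−0.50) and FBA1 (−0.45) rose in Bdf1/2-AID. The rest were YIL054W, DPI8, GPP1 and the ribosomal spacer ITS1-1. Over the 13 genes that rose in Bdf1/2-AID, 0 were called in ΔCPS. As 2.26% of all genes tested were called lower there and 0% higher, this count says little about the 13. Their median change was −0.08 (range −0.32 to 0.66) in ΔCPS and 0.85 in Bdf1/2-AID, on whose rise they were picked.

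Set side by side in IAA, the 2 strains had different profiles of new RNA, and the level over all genes differed in DMSO as well. Over all genes there were 10915 ± 1016 T>C CPM in ΔCPS and 15238 ± 300 in Bdf1/2-AID (SD, n = 3 each, IAA). Between the IAA libraries, 599 genes were lower (14.4%) and 390 were higher (9.36%) in ΔCPS, with a median of 0.22. The shortfall lay among the genes with most T>C reads in WT. The highest of the 5 bins by reads in WT summed to 7208 ± 669 T>C CPM in ΔCPS and 11362 ± 245 in Bdf1/2-AID. The 100 genes with most reads summed to a mean of 3137 T>C CPM in ΔCPS (2813 to 3350) and of 5482 in Bdf1/2-AID (5336 to 5599), and the lowest bin to 460 ± 36 in ΔCPS and 376 ± 11 in Bdf1/2-AID. Over the 5 bins, from lowest to highest, the median differences were 0.69, 0.39, 0.27, 0.09 and −0.20.

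Genes lower in ΔCPS than in Bdf1/2-AID in IAA included 16 of 17 glycolytic genes (median −1.50), 9 of 11 histone genes (−1.34), 9 of 13 Msn2/4 targets (−1.36), 12 of 23 Hsf1 chaperones (−0.59) and 57 of 137 ribosomal protein genes (−0.38), beside 14.4% of all genes. The summed levels of such groups also stood apart in DMSO, a difference that was not tested. Glycolytic genes summed to 344 ± 32 T>C CPM in IAA and 377 ± 10.1 in DMSO in ΔCPS, against 976 ± 31 and 854 ± 74 in Bdf1/2-AID (SD, n = 3 each). Histone genes summed to 168 ± 9.3 and 195 ± 9.996 in ΔCPS, against 447.1 ± 40 and 522 ± 61 in Bdf1/2-AID, and Msn2/4 targets to 17.9 ± 1.4 and 20.1 ± 0.65, against 65.6 ± 3.5 and 76.1 ± 5.4. In these groups the means of ΔCPS were thus lower with the endogenous proteins present as well as after their depletion, as was the sum over all genes. TDH3 had 69.2, 65.7 and 56.9 T>C CPM in IAA in ΔCPS against 163, 160 and 154 in IAA in Bdf1/2-AID (log2 difference −1.31, edgeR adjusted p = 1.86e-18). PGK1, of phosphoglycerate kinase, had 52.3, 40.7 and 41.5 in IAA in ΔCPS against 148, 139 and 145 in IAA in Bdf1/2-AID (−1.69), and HHF2 differed by −1.84. Ribosome biogenesis ran the other way, with 19 of 86 genes higher (median 0.26, beside 9.36% of all genes) and 7 lower. BUR2, the cyclin of an elongation kinase, had 9.96, 9.66 and 8.28 in ΔCPS against 2.85, 3.64 and 4.21 in Bdf1/2-AID (1.35, edgeR adjusted p = 1.13e-07). Higher values in ΔCPS were also called for the ubiquitin receptor of the proteasome RPN13 (1.77), the Mediator subunit SRB6 (1.65) and the helicase DRS1 (1.18). Scaling to size factors turned the median to −0.82, with 1617 lower and 38 higher, so the direction of this median turned with the scaling.

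Against WT, the change on IAA in ΔCPS differed in 0 genes in either direction by edgeR (0%) and in 0 by DESeq2. Unadjusted, 53 were lower (1.27%) and 32 higher (0.768%). The median difference was −0.04, −0.006 against WT libraries A to C and −0.06 against D to F. The median half-width of the 95% interval of a gene's difference was 1.10 on the log2 scale, and in 561 genes (13.5%) the interval lay within ±1, so a difference of moderate size could not be seen in most genes. RPS11A differed from WT by −0.81 (edgeR adjusted p = 0.9998). WT on its own had 0 genes called in either direction by edgeR without a block (616 lower, 14.8%, and 2 higher, 0.048%, unadjusted) and a median of −0.37.

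In WT, deviations from the mean of all 6 libraries of a treatment correlated between libraries of the same replicate letter (r of 0.29 to 0.57 in all 6 pairs). The best match was not always the same letter (B for DMSO library A, C for B and F for E). It always lay in the same set, A to C or D to F, so letter and set cannot be told apart here. ΔCPS has no such sets. The letter, and with it the set, was also fitted as a block, an alternative added for WT after this was seen. With the block 1178 genes (28.3%) were lower in WT and 2 (0.048%) were higher by edgeR, with a median of −0.37. The higher genes were PDR12 (log2 change 1.02 in WT) and ADY3 (1.01). Of the 94 genes called in ΔCPS, 38 (40.4%) were lower in WT in this fit, beside that background of 28.3%, in which a typical gene had fewer reads. The number of calls in WT thus rested on the block, and fewer calls without it do not show a smaller change than in ΔCPS. The interaction with the block again gave 0 calls in either direction (181 lower, 4.34%, and 90 higher, 2.16%, unadjusted), with a median of −0.05, a half-width of 0.88 and 1360 genes (32.6%) with an interval within ±1. RPS11A then differed by −0.86 (edgeR adjusted p = 0.297).

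The variants that affect both phosphorylation regions had medians of −0.56 (mNPS/CPS) and −0.66 (ΔNPS/CPS) on IAA, with 0 and 142 genes lower (0% and 3.41%) by edgeR. Unadjusted, 210 were lower in mNPS/CPS (5.04%, and 2 higher, 0.048%) and 981 in ΔNPS/CPS (23.5%, and 9 higher, 0.216%). The T>C share was 0.907% ± 0.29 in IAA and 1.24% ± 0.53 in DMSO in mNPS/CPS, and 0.898% ± 0.105 and 1.26% ± 0.13 in ΔNPS/CPS (SD, n = 3 each). These baselines lay near that of ΔCPS (the differences were not tested), and IAA stood at 73.0% and 71.0% of DMSO. Library B was high in both treatments in mNPS/CPS (1.24% in IAA and 1.86% in DMSO). The change in ΔCPS minus that in mNPS/CPS had a median of 0.13 with 0 calls by edgeR and by DESeq2 (unadjusted by edgeR, 7 lower, 0.168%, and 55 higher, 1.32%), and leaving out single libraries moved the median from −0.30 (without mNPS/CPS DMSO library B) to 0.46 (without mNPS/CPS IAA library B). Minus that in ΔNPS/CPS it was 0.24 with 0 calls by either tool (unadjusted by edgeR, 53 lower, 1.27%, and 262 higher, 6.29%). The median half-widths of these intervals were 1.51 and 1.46. Of the 94 genes called in ΔCPS, 0 were called in mNPS/CPS and 7 (7.45%, against 3.41% of all genes) in ΔNPS/CPS. A typical gene of that background had fewer reads than the 94.

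Relative to the typical gene, few genes were called in all reads after 25 min in ΔCPS. Without a spike-in, a fall common to all RNA could not be seen. With TMM factors, which set the typical gene near no change, 1 of 5938 genes was lower (0.0168%) and 5 were higher (0.0842%). Without adjustment these shares were 4.29% and 5.61%, and DESeq2 called 2 and 36. Scaled to library totals, the median change was −0.11, with 1 gene called lower and 1 higher. Unadjusted, 761 were then lower and 101 higher. PDR12 (YPL058C, chrXVI:445592-450377), the export pump for weak organic acids, had 130, 104 and 113 CPM in IAA and 25.0, 23.5 and 25.0 CPM in DMSO in ΔCPS (log2 change 2.34, SE 0.10, edgeR adjusted p = 5.54e-10). Its values were also higher in IAA than in DMSO in the strains it was set against, at 38.7 ± 1.9 and 17.1 ± 1.9 CPM in Bdf1/2-AID (n = 3 each) and at 88.6 ± 9.3 and 28.7 ± 1.7 CPM in WT (SD, n = 6 each). Its T>C reads changed by 0.91 in ΔCPS (edgeR adjusted p = 0.0548). The lower gene was the noncoding RNA gene YNCC0005W, with 25.6, 26.5 and 25.2 CPM in IAA and 45.6, 41.6 and 41.4 CPM in DMSO. YNCO0011W and YOL013W-A, which overlap and hold the same reads, rose (log2 change 0.80, edgeR adjusted p = 0.0117), and so did YDR194W-A (0.72) and YLR285C-A (0.70). Without DMSO library C, 64 genes were higher in total reads and 3 lower, and without the other libraries in turn 1 to 8 were higher and 0 to 2 lower.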

How the data were processed

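SLAM-seq libraries of ΔCPS, with the Bdf1/2-AID, WT, mNPS/CPS and ΔNPS/CPS libraries it was set against, were used as deposited. Per the methods and file headers, the authors trimmed reads with fastp (0.23.2) and bbduk and mapped and counted them with SLAM-DUNK (0.4.3) on 1 region per gene including the 3′ UTR (R64-3-1). The deposited values are raw counts per gene, 1 of all reads and 1 of reads with at least 2 T>C conversions. The authors normalized T>C reads by total read counts, as was done here, so a change is relative to all reads of a library and not to a spike-in.

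Strains, treatments and replicates were taken from the labels. T>C counts of genes with a mean of at least 5 T>C reads over the 6 ΔCPS libraries were fitted with edgeR 4.0.16 (quasi-likelihood, library size set to total reads, Benjamini-Hochberg threshold 0.05, R 4.3.3). Differences between strains were tested as interactions, and total reads with TMM factors over genes with a mean of at least 10 reads. T>C shares were compared with WT by exact two-sided permutation tests. Alternatives were DESeq2 1.42.0, size factors of total reads, TMM of T>C reads, each gene's own reads as denominator, other filters, the replicate letter as a block and leaving out each library. Simulated counts were used to test the edgeR fit within ΔCPS and that of its difference from the strain with no additional copy. Both were scaled to library totals, and the other fits were not tested in this way.

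Genes were named by a rule: the genes of the strain construction, the 6 largest falls and rises among called genes whose groups did not overlap and of which the higher averaged at least 20 T>C reads, 3 genes in each direction for the difference from Bdf1/2-AID, the 2 members of each list with most T>C reads, and 3 in each direction for total reads with at least 100 reads. Genes outside it are named as called members of lists or as chosen after their values were seen. The comparison, the rule and the lists were chosen with earlier results of these data known. Gene names were found for 6462 of 6465 identifiers. Coordinates are those of the counted regions, and 6461 of 6462 genes shared their 5′ end with the R64 annotation used for sequences. Replicates with the same letter did not deviate together in ΔCPS (r of −0.013, 0.029 and −0.035), and the fits have no block unless stated. In WT they correlated (r of 0.29 to 0.57), though letter could not be told apart from the sets A to C and D to F. Values with the letter as a block are given for WT too. Counts of ΔCPS replicates differed beyond sampling noise.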

Additional observations from a re-analysis of the deposited data

Results flagged for a closer look

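The results here were singled out because the change on IAA in ΔCPS differed from that in Bdf1/2-AID by a test of the difference itself (an edgeR interaction). The fall was smaller in ΔCPS (or the rise larger) in 2174 genes, and the opposite held in 11. Single genes named by the rule were DMA2 (difference of 6.42 on the log2 scale), MTC5 (5.22) and IRC25 (4.17), each with at most 2 T>C reads over the 3 IAA libraries of Bdf1/2-AID, and NRD1 (−1.66), SNR55 (−1.12) and SNR61 (−1.11), which were higher in IAA in Bdf1/2-AID and were not called in ΔCPS. None of these last 3 differences was called with each gene's own reads as denominator.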

How the results depend on the processing

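With 3 libraries per treatment and a median of 13.7 T>C reads per gene, single calls in ΔCPS were limited by depth, while the T>C share was not. The IAA share stayed at 75.6% to 82.6% of the DMSO share when single libraries were left out. Its difference from WT was −2.01 to −1.91 percentage points in IAA and −2.47 to −2.45 in DMSO without 1 ΔCPS library, where the exact test of 2 against 6 libraries cannot reach 0.05. The median log2 change in ΔCPS was 0.0098 with TMM of T>C reads, which takes the common shift out by construction, and −0.49 to −0.34 with 1 library left out.

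Beside the 94 lower and 0 higher genes of ΔCPS stood 1 and 0 (size factors), 1 and 5 (TMM), 148 and 1 (a T>C read in every library), 136 and 1 (mean of at least 10 T>C reads), 31 and 0 (own reads), 137 and 1 (replicate block) and, leaving out single libraries, 2 to 117 lower. For the difference from Bdf1/2-AID, the numbers of genes that fell further and less in ΔCPS were 246 and 251 (size factors), 437 and 109 (TMM), 0 and 249 (own reads), and 7 to 13 and 1743 to 2197 with single libraries left out. Between the IAA libraries of ΔCPS and Bdf1/2-AID, 14.4% of genes were lower and 9.36% higher, against 38.8% and 0.912% with size factors, 4.2% higher with DESeq2 and 5.28% to 9.64% higher with single libraries left out. Total reads gave 1 higher gene with library totals, 2 lower and 36 higher with DESeq2, 22 higher with the replicate block and 0 to 3 lower and 1 to 64 higher with single libraries left out. The replicate block gave 1 gene that fell less in ΔCPS than in mNPS/CPS. In WT on its own it gave 1178 lower and 2 higher genes, against 0 and 0 without it. Reversed single values were RPL41A with TMM (0.38, ΔCPS IAA against DMSO) and SNR61 with own reads (0.094, difference from Bdf1/2-AID). Apart from the changes of scaling, denominator and filter given here, the cause was not tested. Values of named genes kept their direction and side of the threshold in 789 alternatives, lost the call in 222, gained one in 6 and reversed in 2.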
